A study of Homo sapiens with 6 samples.

Results

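The genes that copy DNA and the genes that divide the cell were followed on 6 Affymetrix HuGene 1.0 ST arrays of 2 HEK293 lines. The set held 50 genes, 29 assigned to the G1/S transition and DNA synthesis and 21 to G2 and mitosis, and each was read from a probe set annotated with that gene alone. All 50 were measured, by 51 probe sets, out of 18377 genes named alone on the array. Membership was decided by gene name. CDK2 and CDC25A were counted with the G1/S genes.

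HEK293 is a human embryonic kidney line transformed with adenovirus DNA. The line labelled HEK-BAHD1 carried the cDNA of BAHD1, a heterochromatin protein that silences genes, under a cytomegalovirus promoter at a single integration site. The line labelled HEK293-CT was its isogenic control, with an insert that is not made into protein (per the labels a β-galactosidase sequence out of frame, per the methods the empty vector). Both were grown under hygromycin in the same medium, and there were 3 arrays of each line. Each line was 1 stable pool of transfectants, and the replicates were flasks grown apart, so p-values measure the spread between cultures of a pool and not between independent transfections. Per the methods, cultures were taken at more than 1 passage, and the passage of each array is not given, so its part in the spread was not tested.

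The transcript of BAHD1 itself ran against the labels. The arrays gave it a log2 signal of 6.75, 7.0 and 6.76 where labelled HEK-BAHD1, against 10.06, 9.81 and 9.93 where labelled HEK293-CT. The log2 fold change was -3.10 (SE 0.093, adjusted p = 3.12e-05 in limma). Every direction given here is therefore that of the labels, as arrays labelled HEK-BAHD1 over arrays labelled HEK293-CT, and each would turn round if the labels had been exchanged. Per the methods, the HEK-BAHD1 line was checked for BAHD1 protein by immunoblot and by immunofluorescence, which concerns the cells and not the naming of the arrays. No array stood apart from the others of its label, and array medians lay between 5.46 and 5.56. Of 8 genes known from HEK293 cells, limma gave NEFL and NEFM, both neurofilament chains, as higher under the HEK-BAHD1 label (log2 fold changes 0.40 and 0.77). VIM was lower (-0.28). NEFM is dim, with signals of 4.21 to 5.47, below the median of each array. KRT8, KRT18 and CDH2 lay lower without a call (-0.12, -0.12 and -0.15). The 2 labels did not overlap for 2 of the 8 genes higher (25%) and 4 lower (50%), beside 16.7% and 16.9% of all probe sets. Of 7 fibroblast markers, COL3A1 was lower in limma (-0.31) and none was called by the LPE test. None of 4 immune and 4 endothelial markers was called by limma or by the LPE test, and none had an unadjusted p under 0.05.

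A cell enters S phase when cyclin E with CDK2, and the release of E2F factors from RB proteins, switch on the genes for origin licensing, replication forks and nucleotide supply. In HEK293 cells the adenoviral E1A protein binds the RB family, so this switch is less restrained than in untransformed cells. Later in the cycle the MuvB complex with MYBL2 and FOXM1 drives the mitotic genes, whose products condense chromosomes, build the spindle and guard the attachment of chromosomes to it. In RNA from a whole culture, fewer cells in a phase and less transcript per cell in that phase cannot be told apart.

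Promoter letters known from these 2 programmes are shown first, because they do not depend on the arrays. RefSeq promoter windows on GRCh38.p14, from 250 bases before to 50 bases after a start site, were at hand for 40 members (52 windows). CCNE2, CDK2, E2F8, MCM4, MCM5, FOXM1, AURKA, BIRC5, TTK and TPX2 were not matched. Both strands were searched for 4 E2F words (TTTCCCGC, TTTCGCGC, TTTGCCGC and TTTGGCGC, which can overlap one another), for the cell cycle homology region, CHR (TTTGAA), and for the CCAAT box. The 6 windows below belong to the called gene that was higher (CCNE1), an E2F factor and a phosphatase of G1/S with E2F words (E2F1 and CDC25A), the 2 lower mitotic genes whose call held in every alternative (CDC25C and KIF20A), and a mitotic kinase of nearly equal level (PLK1). Capitals mark letters of any of the 3 motifs.
CCNE1, chr19:29811741-29812040, plus strand: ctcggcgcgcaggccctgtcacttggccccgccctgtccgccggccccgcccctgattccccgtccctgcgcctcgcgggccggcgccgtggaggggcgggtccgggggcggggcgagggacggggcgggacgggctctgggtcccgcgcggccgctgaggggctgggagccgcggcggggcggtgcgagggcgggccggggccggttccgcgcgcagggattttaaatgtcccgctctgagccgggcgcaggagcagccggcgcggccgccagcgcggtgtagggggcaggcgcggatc
E2F1, chr20:33686336-33686635, minus strand: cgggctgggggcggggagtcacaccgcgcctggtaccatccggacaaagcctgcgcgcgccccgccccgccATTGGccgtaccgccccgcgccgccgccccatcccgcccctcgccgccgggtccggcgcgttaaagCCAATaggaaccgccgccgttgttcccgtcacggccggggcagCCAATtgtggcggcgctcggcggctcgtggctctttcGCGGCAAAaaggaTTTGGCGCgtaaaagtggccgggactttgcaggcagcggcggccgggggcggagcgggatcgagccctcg
CDC25A, chr3:48188368-48188667, minus strand: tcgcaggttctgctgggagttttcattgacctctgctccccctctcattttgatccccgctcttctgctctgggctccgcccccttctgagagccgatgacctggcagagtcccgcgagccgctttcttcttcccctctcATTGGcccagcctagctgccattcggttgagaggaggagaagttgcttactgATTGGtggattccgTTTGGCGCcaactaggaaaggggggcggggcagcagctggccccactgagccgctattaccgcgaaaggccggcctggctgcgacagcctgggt
CDC25C, chr5:138331755-138332054, minus strand: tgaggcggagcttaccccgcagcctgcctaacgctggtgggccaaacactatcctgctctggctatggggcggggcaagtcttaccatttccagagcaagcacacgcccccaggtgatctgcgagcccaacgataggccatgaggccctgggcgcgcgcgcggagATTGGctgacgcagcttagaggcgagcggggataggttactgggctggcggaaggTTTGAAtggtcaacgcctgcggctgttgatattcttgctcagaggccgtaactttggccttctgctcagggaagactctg
KIF20A, chr5:138178862-138179161, plus strand: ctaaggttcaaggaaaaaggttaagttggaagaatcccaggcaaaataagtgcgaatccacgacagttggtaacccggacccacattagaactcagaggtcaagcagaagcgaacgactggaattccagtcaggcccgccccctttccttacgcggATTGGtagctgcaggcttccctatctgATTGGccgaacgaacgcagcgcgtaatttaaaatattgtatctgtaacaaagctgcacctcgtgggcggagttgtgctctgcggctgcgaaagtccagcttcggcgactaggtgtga
PLK1, chr16:23678639-23678938, plus strand: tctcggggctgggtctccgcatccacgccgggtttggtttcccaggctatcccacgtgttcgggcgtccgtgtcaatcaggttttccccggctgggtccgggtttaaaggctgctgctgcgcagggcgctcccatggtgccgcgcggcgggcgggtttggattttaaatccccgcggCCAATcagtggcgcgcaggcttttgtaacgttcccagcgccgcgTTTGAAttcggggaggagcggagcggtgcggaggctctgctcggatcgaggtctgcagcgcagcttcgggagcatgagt

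An E2F word stood in a window of 15 of 24 G1/S genes (62.5%) and of 1 of 16 G2/M genes (6.25%), CDK1, against 3.99% of 27305 genes in the table. The CHR was found in 2 of 24 G1/S genes (8.33%) and in 10 of 16 G2/M genes (62.5%), against 18.2% of all genes. The CCAAT box was present in 66.7% of the G1/S genes, 87.5% of the G2/M genes and 39.7% of all genes. In 6 of these 10 mitotic genes a CHR stood between positions -30 and -23 from a start site: -30 in CDC25C, -29 in PLK1, CCNB2 and MKI67, -28 in KIF11 and -23 in BUB1B. The other 4 had it elsewhere, at -178 and -65 in CDC20, at -194 and -151 in TOP2A, at 41 in CENPF and between -161 and 10 in CDK1. A further copy lay at -47 in MKI67. The CDC25C site at -30 is the same stretch that lies at 44 from another start site of that gene. The CCAAT box nearest to the CHR lay upstream in CDC25C (-85), PLK1 (-73), CCNB2 (-54) and KIF11 (-53). In MKI67 the box nearest to the CHR at -29 lay downstream of it, at -24, and the BUB1B window held none. The CDC25C windows from 138338292 and 138338306, not printed here, held none of the 3 motifs. The CCNE1 window held none of the 3 motifs, which says only that these letters were not in that window.

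**Figure D1:**
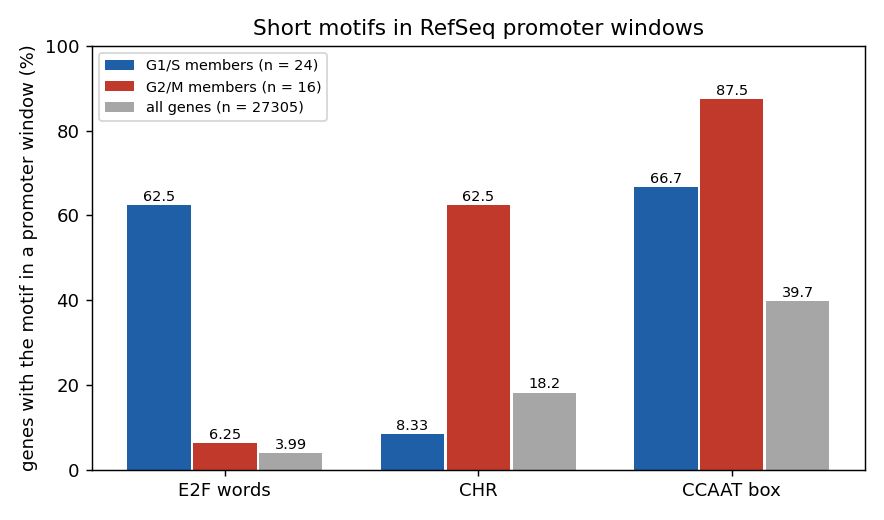
Share of genes, in percent, with each motif in at least 1 RefSeq promoter window, for G1/S members (n = 24), G2/M members (n = 16) and all genes of the table (n = 27305). The E2F words were most frequent among G1/S members (62.5%) and the CHR among G2/M members (62.5%).

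The arrays were then read against these letters. The 15 G1/S genes with an E2F word had a median log2 fold change of -0.04 and none was called, whereas the 9 without one had a median of -0.15 and included CCNE1. Among the G2/M genes the median was -0.15 for the 10 with a CHR and also for the 6 without. These medians are descriptions and were not tested.

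Across the set, small decreases on the arrays labelled HEK-BAHD1 prevailed, and few passed the test. A gene was called when its limma p, adjusted over 21062 probe sets, was under 0.05 and its group medians differed by more than 0.2 on the log2 scale. By this rule 1 of the 50 members was higher (CCNE1), 5 were lower (CCNE2, CDC25C, KIF20A, CENPE and TTK) and 44 were not called. The members' shares were thus 2% higher and 10% lower, while over all probe sets 13.2% were called, 6.79% higher and 6.39% lower. Calls varied with signal, and the members are bright. Among 7710 probe sets with a mean signal within the members' range (7.395 to 11.84), 7.89% were higher and 10.9% lower. The members' share of lower calls was close to this 10.9%. Such probe sets are called of like signal below, but they share only the range. They were not matched to the members' signals within it, nor chosen anew for any smaller group of genes.

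The direction of the means was more uniform than the calls. The mean was lower on the arrays labelled HEK-BAHD1 for 40 members (80%) and higher for 10 (20%). Over all probe sets these shares were 48.7% and 50.4%, and over those of like signal 58.3% and 40.8%. The median log2 fold change was -0.11, within a range of -0.31 to 0.31, against 0.0033 over all probe sets and -0.033 over those of like signal. The 3 arrays labelled HEK-BAHD1 all lay below the 3 labelled HEK293-CT for 24 members (48%), and all above for 5 (10%). The same held for 16.9% and 16.7% of all probe sets, and for 29.9% and 19.3% of those of like signal. Unadjusted p-values under 0.05 were reached by 22 members lower (44%) and 2 higher (4%), against 14.8% and 14.5% of all probe sets and 24% and 15.1% of those of like signal. Standard errors ran from 0.049 to 0.087, so that differences much under 0.2 could seldom be resolved with 3 arrays a line. Under the rule, medians 0.2 or less apart could not be called at any precision.

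**Figure D2:**
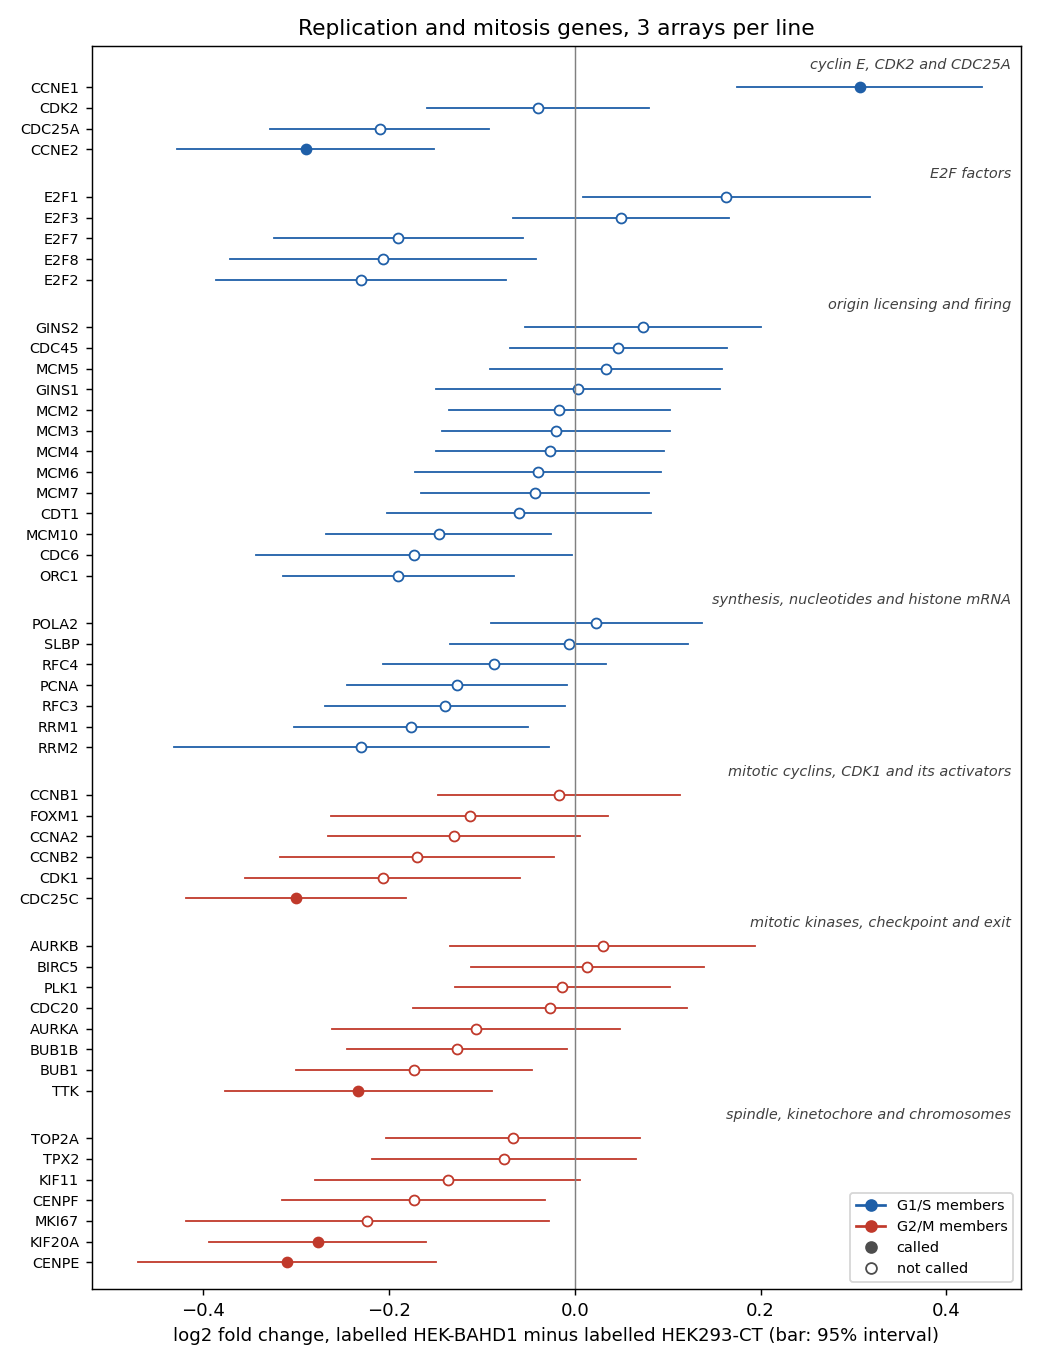
Log2 fold change of each of the 50 members, arrays labelled HEK-BAHD1 minus arrays labelled HEK293-CT (points), with the 95% interval from limma (bars), grouped by role. Filled points mark the 6 called genes; 40 of the 50 points lie below 0 and none lies beyond 0.31 on either side.

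Among the regulators of S phase entry, the 2 E cyclins moved in opposite directions. CCNE1 encodes cyclin E1, which activates CDK2 at the G1/S boundary. Its log2 signal was 8.92, 9.00 and 9.00 on the arrays labelled HEK-BAHD1, against 8.67, 8.72 and 8.61 on those labelled HEK293-CT. The groups did not overlap, and CCNE1 was higher by 0.31 (SE 0.057, limma adjusted p = 0.0141). CCNE2 encodes the close relative cyclin E2. Its log2 signal was 9.21, 9.25 and 9.20 on the arrays labelled HEK-BAHD1, against 9.47, 9.60 and 9.46 on those labelled HEK293-CT. Here too the groups were apart, with CCNE2 lower (log2 fold change -0.29, SE 0.059, limma adjusted p = 0.0201). Both calls were near the threshold. Without replicate 3 of HEK293-CT, CCNE1 had an adjusted p of 0.0582 in limma. CCNE2 had 0.0618, 0.0610 and 0.0532 without HEK-BAHD1 replicate 1, HEK-BAHD1 replicate 3 and HEK293-CT replicate 2.

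CDK2, the kinase partner of both cyclins, had nearly equal signals, at 10.46, 10.52 and 10.44 on the arrays labelled HEK-BAHD1 and at 10.51, 10.52 and 10.51 on those labelled HEK293-CT. Its 95% interval of the log2 difference was -0.16 to 0.079. CDC25A is the phosphatase that removes inhibitory phosphates from CDK2. Its signals were 9.40, 9.39 and 9.35 on the arrays labelled HEK-BAHD1, against 9.62, 9.57 and 9.58 on those labelled HEK293-CT. CDC25A passed the limma test (log2 fold change -0.21, SE 0.051, adjusted p = 0.0345) but its medians differed by only -0.19, so it stood just outside the rule. Without any 1 of the 6 arrays it did not pass that test either (limma adjusted p of 0.0729 to 0.103). The D cyclins, which act before cyclin E and are not members, showed far larger differences. CCND1 gave 8.50 ± 0.020 on the arrays labelled HEK-BAHD1 and 6.54 ± 0.21 on those labelled HEK293-CT (SD, n = 3 each), and CCND2 gave 10.39 ± 0.036 on the HEK-BAHD1 arrays and 8.98 ± 0.13 on the HEK293-CT arrays. Their log2 fold changes were 1.96 and 1.41, with limma adjusted p = 0.000176 for both. CCND3 was lower by a small margin (log2 fold change -0.23, adjusted p = 0.0334 in limma), and their partner kinases CDK4 and CDK6 were not called.

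None of the 5 E2F factors was called by limma, although each of them had groups that did not overlap. Such separation, higher or lower, was also seen for 16.7% and 16.9% of all probe sets and for 19.3% and 29.9% of those of like signal. E2F1 and E2F3, which activate S phase genes, lay higher, and E2F2, of the same activating class, lay lower. E2F1 had 7.68, 7.56 and 7.76 on the arrays labelled HEK-BAHD1, against 7.49, 7.47 and 7.55 on those labelled HEK293-CT. Its log2 fold change was 0.16 (SE 0.066, limma adjusted p = 0.150). E2F2 had 7.16, 7.36 and 7.32 on the arrays labelled HEK-BAHD1, against 7.55, 7.50 and 7.48 on those labelled HEK293-CT (log2 fold change -0.23, limma adjusted p = 0.0615), and was called once arrays were centred on their medians. E2F3 differed by 0.05, with values of 8.27 to 8.28 on the arrays labelled HEK-BAHD1 and 8.19 to 8.25 on those labelled HEK293-CT. The repressor class E2F7 and E2F8 had log2 fold changes of -0.19 and -0.21, with limma adjusted p = 0.0687 and 0.0976. E2F7 was called by the LPE test, the only one of the 5. Unadjusted p-values under 0.05 were seen for 1 factor higher (20%) and 3 lower (60%). All probe sets reached this in 14.5% and 14.8%, and those of like signal in 15.1% and 24%.

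The 13 origin licensing and firing genes had the median log2 fold change nearest to 0 of the 7 role groups, at -0.027. The MCM2 to MCM7 proteins form the ring helicase loaded at origins, and all 6 genes lay between -0.043 and 0.033. MCM2 had 10.03, 10.09 and 10.07 on the arrays labelled HEK-BAHD1, against 10.09, 10.05 and 10.10 on those labelled HEK293-CT, with a 95% interval of -0.14 to 0.10 for the difference. MCM7 had 11.74, 11.67 and 11.65 on the arrays labelled HEK-BAHD1, against 11.75, 11.73 and 11.71 on those labelled HEK293-CT, with an interval of -0.17 to 0.079. The groups overlapped for all 6 helicase genes. CDC45, GINS1 and GINS2, which turn the loaded ring into an active helicase, had log2 fold changes of 0.047, 0.0033 and 0.073.

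The licensing factors that load the ring lay lower without a call. CDC6 had 11.08, 11.06 and 10.88 on the arrays labelled HEK-BAHD1, against 11.10, 11.24 and 11.20 on those labelled HEK293-CT (log2 fold change -0.17, limma adjusted p = 0.163). ORC1, the large subunit of the origin recognition complex, came close to the threshold at -0.19 (limma adjusted p = 0.0545). MCM10, a helicase cofactor, was at -0.15 and CDT1, the loading partner of CDC6, at -0.06. No gene of this group was called by limma or by the LPE test. An unadjusted p under 0.05 was reached by 3, all lower (ORC1, CDC6 and MCM10). Their share of 23.1% stood beside 14.8% of all probe sets and 24% of those of like signal.

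In the group for DNA synthesis, nucleotide supply and histone mRNA, 6 of 7 means were lower under the HEK-BAHD1 label, and the log2 fold changes had a median of -0.13. Lower means made up 48.7% of all probe sets and 58.3% of those of like signal. PCNA, the sliding clamp of the polymerases, had 11.41, 11.44 and 11.42 on the arrays labelled HEK-BAHD1, against 11.52, 11.59 and 11.54 on those labelled HEK293-CT. The groups were apart, but the difference was small (log2 fold change -0.13, SE 0.051, limma adjusted p = 0.146). RRM1 and RRM2 encode the subunits of ribonucleotide reductase, which makes deoxynucleotides. RRM2 had 9.53, 9.50 and 9.52 on the arrays labelled HEK-BAHD1, against 9.82, 9.87 and 9.55 on those labelled HEK293-CT. Replicate 3 of HEK293-CT lay close to the arrays labelled HEK-BAHD1 and gave RRM2 the widest error of the set (log2 fold change -0.23, SE 0.087, limma adjusted p = 0.126). Without that array the value was -0.33 with a limma adjusted p of 0.0325. RRM1 differed by -0.18, the clamp loader subunits RFC3 and RFC4 by -0.14 and -0.087, the primase partner POLA2 by 0.023, and SLBP, which binds histone mRNA stem loops, by -0.0067. By limma 0 of the 7 were called, by the LPE test 1 (RRM2), and 4 (57.1%) had an unadjusted p under 0.05, all lower. This was reached, lower, by 14.8% of all probe sets and 24% of those of like signal.

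Counted by class, 4 of 21 G2/M genes (19%) and 1 of 29 G1/S genes (3.45%) were lower, beside 6.39% of all probe sets and 10.9% of those of like signal. This contrast in calls depended on the scaling and on single arrays. With arrays centred on their medians 3 G2/M and 5 G1/S genes were lower. Without HEK293-CT replicate 3 there were 2 of each class, and without 1 array the G2/M count was 3 when HEK-BAHD1 replicate 2 was left out and 2 for each of the other 5 arrays. Of the G2/M genes none was called higher by limma or by the LPE test, and none had an unadjusted p under 0.05 in that direction. Unadjusted p-values under 0.05 with a lower mean were alike in share, at 10 G2/M genes (47.6%) and 12 G1/S genes (41.4%). The same held for 14.8% of all probe sets and 24% of those of like signal. The groups were apart and lower for 11 G2/M genes (52.4%) and for 13 G1/S genes (44.8%), beside 16.9% of all probe sets and 29.9% of those of like signal. The median log2 fold change was -0.13 for G2/M and -0.043 for G1/S, a difference of 0.087. Moving CDK2 and CDC25A to the mitotic class left that difference as it was. The numbers of calls could not change, as neither gene was called.

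**Figure D3:**
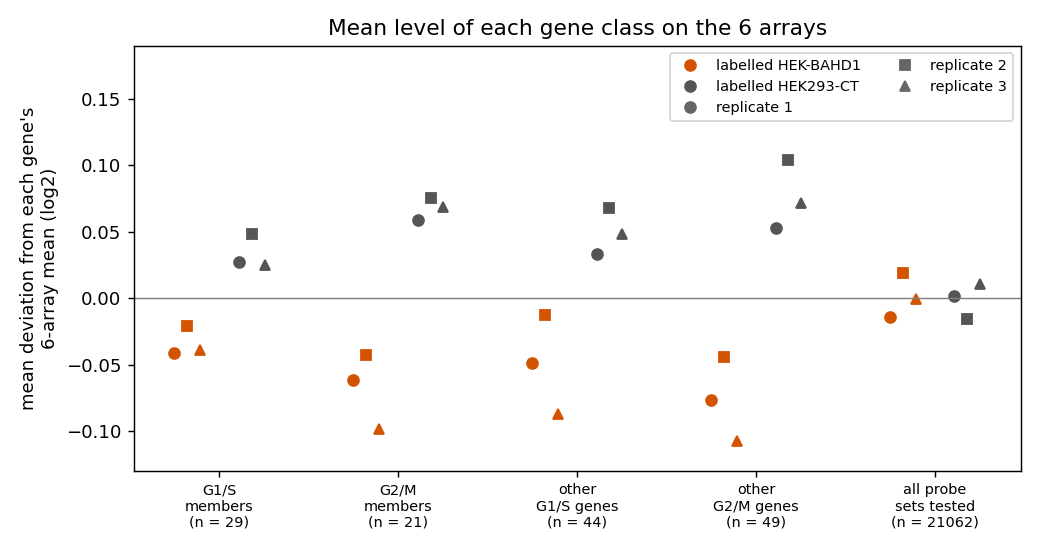
Mean deviation of each gene class from the genes' own means over the 6 arrays, on the log2 scale, for each array (colour: label, shape: replicate). For both member classes and both lists of other genes, the 3 arrays labelled HEK-BAHD1 lie below 0 and the 3 labelled HEK293-CT above, whereas arrays of both labels mix around 0 over all 21062 probe sets.

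Seen array by array, the 2 classes were ordered alike. The G2/M genes deviated on average by -0.061, -0.043 and -0.099 on the arrays labelled HEK-BAHD1, against 0.059, 0.075 and 0.069 on those labelled HEK293-CT. The G1/S genes deviated by -0.041, -0.021 and -0.039 on the arrays labelled HEK-BAHD1, against 0.028, 0.048 and 0.025 on those labelled HEK293-CT. The labels lay further apart for the mitotic class, whose lowest value was on replicate 3 of HEK-BAHD1. Without that array the median of the G2/M genes was -0.097 and the difference between classes 0.06. Over all probe sets the same deviations ran from -0.014 to 0.019 on the arrays labelled HEK-BAHD1 and from -0.016 to 0.010 on those labelled HEK293-CT. Most of those probe sets are dimmer than the members, and the deviations were not computed for probe sets of like signal. These also leaned lower, with 58.3% of means lower and a median log2 fold change of -0.033.

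Among the mitotic cyclins and the activators of CDK1, all 6 means lay lower and CDC25C was called. Means lay lower for 48.7% of all probe sets and for 58.3% of those of like signal. The 1 lower call of the 6 (16.7%) stands beside 6.39% and 10.9%. CDC25C encodes the phosphatase that activates CDK1 at the onset of mitosis. Its log2 signal was 8.60, 8.64 and 8.67 on the arrays labelled HEK-BAHD1, against 8.92, 8.94 and 8.95 on those labelled HEK293-CT. CDC25C had the lowest adjusted p of the set (log2 fold change -0.30, SE 0.051, limma adjusted p = 0.0105). The call held in all 16 alternatives, including each fit without 1 array.

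CDK1, the mitotic kinase itself, lay lower without a call. Its signals were 10.51, 10.52 and 10.43 on the arrays labelled HEK-BAHD1, against 10.60, 10.77 and 10.71 on those labelled HEK293-CT. The groups did not overlap (log2 fold change -0.21, SE 0.064, limma adjusted p = 0.0723). CCNB1, the main cyclin of CDK1, had 11.74, 11.73 and 11.71 on the arrays labelled HEK-BAHD1 and 11.71, 11.82 and 11.70 on those labelled HEK293-CT. Its difference of -0.017 had a 95% interval of -0.15 to 0.11, and without replicate 2 of HEK293-CT it was 0.022. CCNB2 and CCNA2, the other 2 cyclins of the group, lay at -0.17 and -0.13, each with groups apart. Such separation, lower, was seen for 4 of the 6 genes (66.7%), beside 16.9% of all probe sets and 29.9% of those of like signal. FOXM1, a transcription factor of mitotic genes, had 9.22, 9.16 and 9.12 on the arrays labelled HEK-BAHD1, against 9.34, 9.18 and 9.32 on those labelled HEK293-CT, and the groups overlapped (log2 fold change -0.11, limma adjusted p = 0.292).

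The kinases of mitosis and its checkpoint ranged from nearly equal levels to a called fall. PLK1, which drives mitotic entry and spindle assembly, had 11.21, 11.19 and 11.23 on the arrays labelled HEK-BAHD1 and 11.21, 11.21 and 11.25 on those labelled HEK293-CT. Its interval of the log2 difference was -0.13 to 0.10. The Aurora kinases were not called either: AURKA, of the spindle poles, lay at -0.11 (limma adjusted p = 0.343) and AURKB, of the chromosomal passenger complex, at 0.03. BIRC5, or survivin, the partner of AURKB, was read by 2 probe sets, at 0.013 for the brighter and -0.093 for the dimmer, neither of them called. CDC20, which activates the anaphase-promoting complex, was at -0.027.

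The spindle checkpoint genes lay lower than these. TTK encodes the kinase MPS1, which starts checkpoint signalling at unattached kinetochores. Its signals were 9.69, 9.74 and 9.67 on the arrays labelled HEK-BAHD1, against 9.87, 10.03 and 9.90 on those labelled HEK293-CT. The call was marginal (log2 fold change -0.23, SE 0.062, limma adjusted p = 0.0456). It was lost without any 1 of the 6 arrays (limma adjusted p of 0.0675 to 0.120) and in 4 other alternatives. BUB1 and BUB1B, kinases of the same checkpoint, had log2 fold changes of -0.17 and -0.13 with groups apart and no call. Of the 8 genes for mitotic kinases, checkpoint and exit, 3 (37.5%) had groups apart and lower. The same held for 16.9% of all probe sets and 29.9% of those of like signal.

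All 7 spindle, kinetochore and chromosome genes had lower means, with a median log2 fold change of -0.17. Lower means made up 48.7% of all probe sets and 58.3% of those of like signal. Called lower were 2 of the 7 (28.6%), against 6.39% and 10.9%. KIF20A is a kinesin of the central spindle that is needed for cytokinesis. It gave 9.95, 9.94 and 9.92 on the arrays labelled HEK-BAHD1, against 10.24, 10.22 and 10.18 on those labelled HEK293-CT. Its log2 fold change was -0.28 (SE 0.050, limma adjusted p = 0.0132), and the call held in all 16 alternatives. CENPE, the kinesin that moves chromosomes to the spindle equator, gave 7.87, 7.97 and 7.79 on the arrays labelled HEK-BAHD1, against 8.17, 8.27 and 8.12 on those labelled HEK293-CT. This was the largest fall of the set (log2 fold change -0.31, SE 0.069, limma adjusted p = 0.0266). The call was kept without HEK-BAHD1 replicate 2 and lost in the 5 other fits without 1 array, with limma adjusted p of 0.0522 to 0.0775.

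MKI67, the proliferation marker Ki-67 that coats mitotic chromosomes, gave 10.08, 10.18 and 9.94 on the arrays labelled HEK-BAHD1, against 10.39, 10.17 and 10.31 on those labelled HEK293-CT. The groups overlapped (log2 fold change -0.22, SE 0.084, limma adjusted p = 0.124). MKI67 was called by the LPE test, as was RRM2. CENPF, a kinetochore protein, and KIF11, the kinesin that separates the spindle poles, lay at -0.17 and -0.14. TOP2A, the topoisomerase that untangles sister chromatids, gave 11.27, 11.24 and 11.15 on the arrays labelled HEK-BAHD1 and 11.24, 11.34 and 11.28 on those labelled HEK293-CT, which overlapped (-0.067, limma adjusted p = 0.510). TPX2, which nucleates spindle microtubules, was at -0.077.

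**Figure D4:**
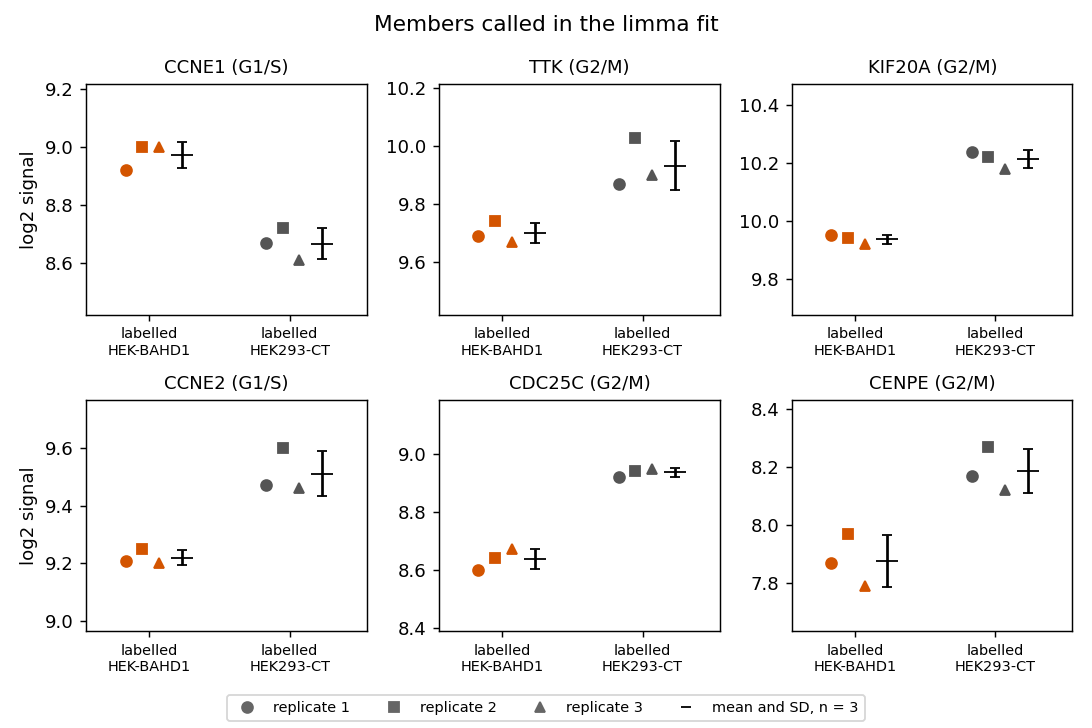
Log2 signal of the 6 called members on each array, with mean and SD (n = 3) beside the points; arrays labelled HEK-BAHD1 stand left of those labelled HEK293-CT, and each panel spans 0.8 log2 units. The groups do not overlap in any panel, and only for CCNE1 do the points labelled HEK-BAHD1 lie above.

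The called members were also placed on their chromosomes. CDC25C and KIF20A both lie on chromosome 5, where 11.1% of 799 probe sets were lower and 6.38% higher. They are near each other there, with promoter windows from 138331755 and from 138178862. Whether their falls share a local difference of that region was not tested. CCNB1, the third member on that chromosome, was not called. CCNE1 lies on chromosome 19, where 4.73% of probe sets were higher and 11% lower. CENPE, TTK and CCNE2 lie on chromosomes 4, 6 and 8, where 4.05%, 6.02% and 5.06% of probe sets were lower, below the share over all probe sets. The part of chromosome-wide differences in these results was not tested.

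Further genes of both programmes were read in the same fit. Of 44 other G1/S genes, 0 were higher and 6 (13.6%) lower in limma, beside 6.39% lower over all probe sets and 10.9% within the members' signal range. By the LPE test 0 were higher and 8 lower. The median was -0.10 (log2), and unadjusted p-values under 0.05 were reached by 2 higher (4.55%) and 20 lower (45.5%). Over all probe sets these shares were 14.5% and 14.8%, and within the members' signal range 15.1% and 24%. The 4 largest falls were in CLSPN, which transmits replication stress to CHEK1 (-0.37), the origin recognition subunits ORC4 (-0.34) and ORC6 (-0.28), and ATAD2, a chromatin ATPase (-0.29). These calls were weak: between 0 and 2 of the 44 genes were called when 1 array was left out, whichever array it was.

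Of 49 other G2/M genes, 0 were higher and 12 (24.5%) lower in limma, beside the same 6.39% and 10.9% (2 higher and 15 lower by the LPE test). The median was -0.14, and unadjusted p-values under 0.05 were reached by 3 higher (6.12%) and 23 lower (46.9%). The shares to set beside these are again 14.5% and 14.8% of all probe sets, and 15.1% and 24% within the members' signal range. NDC80, the microtubule-binding subunit of the outer kinetochore, had 9.08, 9.15 and 9.02 on the arrays labelled HEK-BAHD1, against 9.66, 9.89 and 9.87 on those labelled HEK293-CT (-0.72, SE 0.077, limma adjusted p = 0.00198). This was larger than any difference among the 50 members. NDC80 lies on chromosome 18, where 23.8% of 277 probe sets were lower and 4.33% higher, and what that adds was not tested. KIF18A, a kinesin that damps chromosome movement (-0.49), ZWINT, a kinetochore scaffold (-0.36), and ASPM, a spindle pole protein (-0.33), came next. NDC80, KIF18A, ZWINT and ASPM were called in all 16 alternatives. Without 1 array, 6 to 11 of the 49 genes were lower, with 6 when HEK293-CT replicate 3 was left out.

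The factors that time both programmes were read in the same way. Of 17 E2F partners, RB family, MuvB and inhibitor genes, 3 (17.6%) were lower and 0 higher in limma (3 and 1 by the LPE test). Lower calls made up 6.39% over all probe sets and 10.9% within the members' signal range. Unadjusted p-values under 0.05 were seen for 4 lower (23.5%) and 0 higher. The share lower was 14.8% over all probe sets and 24% within the members' signal range. CDKN1B encodes p27, an inhibitor of cyclin E with CDK2. It gave 9.51, 9.48 and 9.41 on the arrays labelled HEK-BAHD1, against 9.82, 9.88 and 9.86 on those labelled HEK293-CT (-0.39, SE 0.054, limma adjusted p = 0.00540). LIN54, the MuvB subunit that binds the CHR, and LIN52, another subunit of that complex, had log2 fold changes of -0.41 and -0.38 with limma adjusted p = 0.0231 and 0.0186. LIN54 was not called in 3 of the 6 fits without 1 array and LIN52 in 2 of them.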

How the data were processed

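RNA of 6 cultures was hybridised to Affymetrix HuGene 1.0 ST arrays, and the authors deposited log2 values after RMA, which corrects background, normalizes between arrays and summarises probes. No source used here gives its version. The deposited series was taken to be the expression experiment of the paper, which names another series number. Of 28869 probe sets, 19310 named 1 gene, 1752 several and 7807 none; the 21062 naming at least 1 gene were tested together. Symbols were updated through gene identifiers.

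Arrays labelled HEK-BAHD1 and HEK293-CT were compared with lmFit and eBayes (limma 3.58.1, R 4.3.3), with no covariate and Benjamini-Hochberg adjustment over all 21062. A probe set was called at an adjusted p under 0.05 with group medians more than 0.2 apart, the study's threshold. The study's LPE test was written anew (100 intensity bins, spline of 10 degrees of freedom) and run as an alternative. The code was tested on simulated data. Where a gene had 2 probe sets of its own, the brighter was used. Arrays carry no depth, and their number limits the precision.

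The members and lists were chosen with earlier results of these data known, so no list was tested. The genes named were the called members, the 5 largest rises and falls, regulators fixed by name, and up to 4 called genes a direction of each other list; further members were named to complete their role groups, after their values were seen. Some listed genes are not reported here. Alternatives were another test, centring, a second quantile normalization, filters, eBayes settings, a replicate block and the omission of each array in turn.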

Additional observations from a re-analysis of the deposited data

How the results depend on the processing

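Across 16 alternatives, CDC25C and KIF20A were called lower in every one, and no called member changed sign. The 5 members lower became 8 with the LPE test, with arrays centred on their medians and with an intensity trend in eBayes, and between 2 and 4 without 1 array. The 1 G1/S gene lower became 2 without the threshold on medians or with the dimmest 30% of probe sets left out, 3 with the LPE test or the trend, 5 with centred arrays, and 0 to 2 without 1 array. The 4 G2/M genes lower became 5 with the LPE test or the trend, and 2 to 3 without 1 array. They became 3 with quantile normalization, with unnamed probe sets tested too, and with the replicate block. With centred arrays they were also 3, so that more G1/S than G2/M genes were then lower. The 1 member higher, CCNE1, became 0 to 1, with 0 only without HEK293-CT replicate 3. Centring gave 1052 higher and 1823 lower calls over all probe sets, instead of 1430 and 1345, and a median of -0.037 instead of 0.0033. It put the G1/S median at -0.083 and the G2/M median at -0.17. Quantile normalization of the deposited values gave -0.021, -0.078 and a difference between classes of 0.058, and turned the small differences of CDK2 (0.0086), MCM2 (0.033) and PLK1 (0.0011) to the other sign. CCNB1 was 0.022 without HEK293-CT replicate 2. Without 1 array the G2/M median ran from -0.15 to -0.097 and the difference between classes from 0.06 to 0.10. The causes were not tested.

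The replicate numbers are shared by both lines but do not pair their arrays: deviations of same-numbered arrays correlated at -0.077, 0.074 and -0.038. With the replicate block, 4 members were lower and 1 higher, TTK being lost (limma adjusted p = 0.0735), 1 of the other G1/S genes stayed lower instead of 6, and calls over all probe sets numbered 962 higher and 829 lower.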
